A study of Mus musculus with 96 samples.

Results

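The 43 genes described here encode proteins of the complement and coagulation systems and were taken by symbol from a count table of 41575 genes; the rule used no measured value, but the list was drawn up with earlier results of these data known. The table held 96 mRNA sequencing libraries, 3 per genotype and tissue, and covered 16 organs or tissues of mice that were all 3 weeks old and either wild-type or Scx-/-. Scx encodes scleraxis, a basic helix-loop-helix transcription factor known for its role in tendon. The strain, the deleted part of Scx and the number of mice were not given in the sources used here, and whole organs were taken, so that fewer cells of a type and less RNA per cell cannot be told apart. Of the 43 genes, 41 had a count in at least 1 library and 40 reached a mean of 10 CPM (counts divided by the library's total and multiplied by 1000000) in at least 1 of the 32 groups of tissue and genotype. C2 and Cfb were at 0 in every library, and C4b had 9 counts in all.

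Complement is a set of plasma proteins that act as a cascade. C1q, the mannose-binding lectins and the alternative pathway each lead to cleavage of C3, and C5 to C9 then assemble into a pore in the target membrane. Coagulation is a second cascade of proteases that ends in thrombin, which cuts fibrinogen, while plasmin later dissolves the clot. Hepatocytes are known as the main source of most of these proteins in blood. Some members are known to be made elsewhere, such as C1q by macrophages, thrombomodulin by endothelium and urokinase by kidney epithelium.

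C8a, the member whose liver level passed the adjusted p between the genotypes, and its partner C8b lie tail to tail on chromosome 4 with 11130 bases between their annotated ends (C8a at 104815679-104876398 on the minus strand, C8b at 104766317-104804548 on the plus strand, GRCm38). The 250 bases before the start of 4 genes are printed from RefSeq (GRCm38.p6), 5′ to 3′ on the gene's strand. C8a is shown for its difference between genotypes, C8b as its partner and neighbour, C3 for its high level in liver in both, and F13b because liver and kidney shared it. Capitals mark GTTAAT, 1 arm of the palindrome bound by hepatocyte nuclear factor 1, or its complement ATTAAC, in the windows of C8a, C8b and F13b, and TTGCNNAA, a form of the site of C/EBP factors, in that of C3.
C8a, chr4:104876399-104876648, minus strand: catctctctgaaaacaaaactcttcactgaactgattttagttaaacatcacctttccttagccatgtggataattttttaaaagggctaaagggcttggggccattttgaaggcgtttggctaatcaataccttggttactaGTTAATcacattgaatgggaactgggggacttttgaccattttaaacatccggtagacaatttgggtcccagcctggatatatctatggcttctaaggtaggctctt
C8b, chr4:104766067-104766316, plus strand: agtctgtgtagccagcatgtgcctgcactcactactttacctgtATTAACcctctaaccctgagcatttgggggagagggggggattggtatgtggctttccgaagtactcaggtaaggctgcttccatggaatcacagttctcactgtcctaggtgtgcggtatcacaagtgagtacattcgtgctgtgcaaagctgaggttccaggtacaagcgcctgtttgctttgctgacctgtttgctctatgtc
F13b, chr1:139501457-139501706, plus strand: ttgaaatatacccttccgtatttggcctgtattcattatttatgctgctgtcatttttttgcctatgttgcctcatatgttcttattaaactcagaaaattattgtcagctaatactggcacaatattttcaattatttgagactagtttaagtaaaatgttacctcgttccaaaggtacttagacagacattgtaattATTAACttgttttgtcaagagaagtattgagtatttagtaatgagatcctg
C3, chr17:57228137-57228386, minus strand: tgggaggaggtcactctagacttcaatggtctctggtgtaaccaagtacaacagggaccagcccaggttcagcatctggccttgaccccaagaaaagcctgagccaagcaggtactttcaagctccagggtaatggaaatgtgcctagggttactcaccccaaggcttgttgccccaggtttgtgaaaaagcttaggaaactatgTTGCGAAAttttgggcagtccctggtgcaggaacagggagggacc
The capitals begin 107 bases before the start of C8a, 206 before C8b, 51 before F13b and 45 before C3. Windows were at hand for 30 of the 43 genes. On either strand GTTAAT was in 4 of these 30 windows and in 6.5% of 27025 mouse windows, and TTGCNNAA was in 5 of 30 and in 9.6%. The GTTAAT window not printed was that of Cfp, which was highest in spleen. TTGCNNAA was in the windows of C3, C9, F9, F11 and Klkb1. Those of F2, Serpinc1, Mbl1 and Mbl2, which were all called higher in liver, had neither motif. CANNTG, the E-box that basic helix-loop-helix factors bind, was in 21 of 30 and in 66.1% of all windows. These are matches of letters and were not tested as binding sites.

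Library totals ranged from 11244 to 1658192 counts. Scx had 80 counts in 12 of 48 wild-type libraries and 9 counts in 1 of 48 Scx-/- libraries, too few to check each label. The markers of the labelled tissue had counts in every tissue, apart from Sftpb in lung, Muc2 in Scx-/- rectum, Plin1 in wild-type and Adipoq in Scx-/- adipose samples. In adipose samples, pancreatic acinar genes took a mean of 51.0% of counts in wild-type and 50.7% in Scx-/- mice and adipocyte genes 0.0124% at most, which lowers the CPM of other genes there. Acinar genes also reached 8.43% in 1 Scx-/- spleen and 4.08% in 1 Scx-/- intestine library, and brown fat genes took a mean of 1.05% in wild-type and 0.550% in Scx-/- vascular samples. In all 16 tissues, the wild-type library numbered 2 held 296 CPM or more of the beta-globin gene Hbb-bs, while no other library exceeded 94.6 CPM. In liver the same library held Y-linked transcripts and no Xist, as did Scx-/- replicates 2 and 3, while wild-type replicates 1 and 3 and Scx-/- replicate 1 held Xist. The labels do not say whether a number names 1 mouse.

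Liver was the main site of most members. The mean level was highest in liver for 26 of the 43 genes in both genotypes, C4b with its 9 counts among them, while 14 were highest in another tissue in both. In an edgeR quasi-likelihood fit of all tissues of 1 genotype, a gene was called higher in liver when its adjusted p was under 0.05 against each of the 15 other tissues. This held for 14 of 41 members in wild-type mice, where 0.563% of 20598 genes were called, and for 16 in Scx-/- mice, where 0.623% of 20852 genes were called. Of these, 13 genes were called in both genotypes. No member was called higher in any other single tissue, and the share of all genes called in those tissues is not given here. In both fits leaving out a replicate number lowered the count, to between 7 and 8 in wild-type and between 9 and 10 in Scx-/- mice. DESeq2 called 1 and 2 members by the same rule, with 15 of 41 in each genotype lacking an adjusted p in some contrast. Another 25 members in wild-type and 24 in Scx-/- mice had every adjusted p and were not called. In all contrasts with a value, 10 and 11 members were called.

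**Figure D1:**
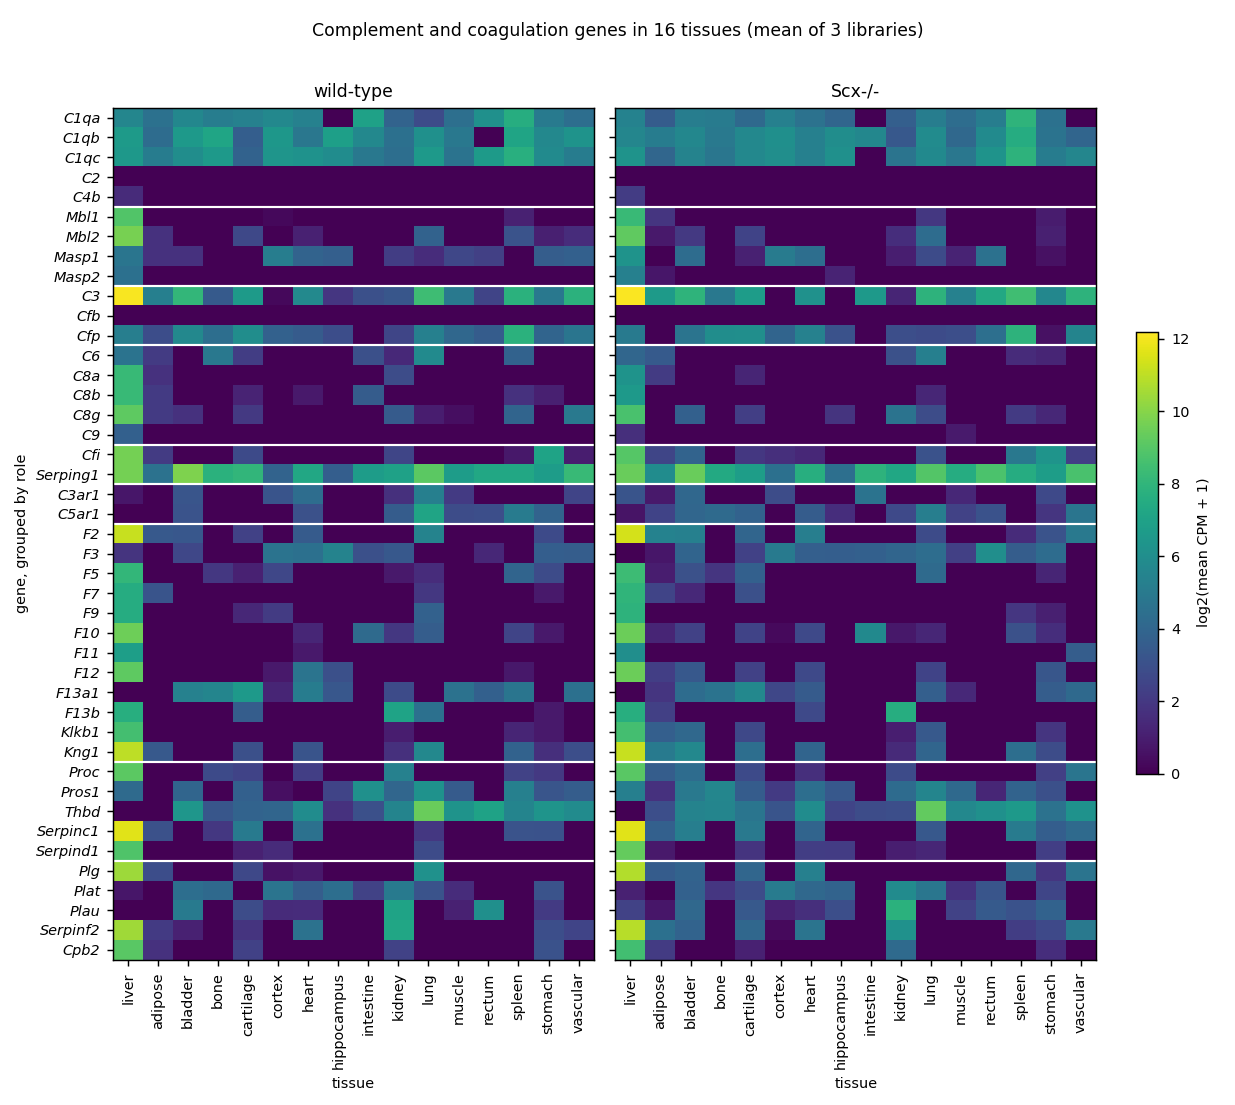
Heat map of the 43 genes (rows, grouped by role, white lines between roles) in 16 tissues (columns, liver first) of wild-type (left) and Scx-/- mice (right). Colour gives log2(mean CPM + 1) over 3 libraries, from 0 (dark) to above 12 (yellow), and the liver column is the brightest for most rows in both genotypes.

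The 13 genes called in both genotypes included lectins, complement components, clotting factors, inhibitors and genes of fibrinolysis. C3, the protein on which all complement pathways meet, was at 4753, 3804 and 4417 CPM in wild-type livers and at 4661, 4279 and 4378 CPM in Scx-/- livers. Its next tissue, lung, was at 341 ± 158 CPM (SD, n = 3) in wild-type mice, so liver was 12.7-fold higher. Liver libraries held 84.9% of its counts, and 71 of the 90 other libraries held some.

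Prothrombin (F2) was at 2336 ± 339 CPM in wild-type and 2751 ± 278 CPM in Scx-/- livers, and 97.4% of its counts came from the 6 liver libraries. Antithrombin (Serpinc1), the main inhibitor of thrombin, was at 3169 ± 468 and 3234 ± 143 CPM, with 98.0% of its counts there. Kininogen (Kng1), the source of bradykinin, was at 2016 ± 119 and 2321 ± 111 CPM. Kng1 has a closely similar paralog, Kng2, and whether their reads were told apart was not tested. Kng2 was highest in kidney, at 189 ± 69.9 CPM in wild-type and 303 ± 67.1 CPM in Scx-/- mice, where Kng1 was at 2.27 ± 3.94 and 1.77 ± 1.59 CPM. Plasminogen (Plg), the precursor of plasmin, was at 1369 ± 239 and 1792 ± 236 CPM, and antiplasmin (Serpinf2), its inhibitor, at 1403 ± 487 and 1902 ± 102 CPM. The livers of the 2 genotypes overlapped for F2, Serpinc1, Plg and Serpinf2, and were apart by a small gap for Kng1, whose adjusted p was 0.746 (edgeR).

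The other genes called in both were the lectins Mbl1 and Mbl2, C8g, the factors F10 and F12, heparin cofactor II (Serpind1) and Cpb2, the carboxypeptidase that slows clot lysis. Mbl1 was at 470 ± 168 CPM in wild-type livers and at 1.15 ± 1.99 CPM in spleen, the next tissue. Mbl2 was at 842 ± 252 CPM in wild-type livers and at 13.4 ± 11.7 CPM in lung. Prekallikrein (Klkb1) was called in wild-type mice alone, and F5, F9 and protein C (Proc) in Scx-/- mice alone, but the contrasts that failed in the other genotype were single ones. Klkb1 fell short against adipose in Scx-/- mice (adjusted p = 0.0868), and in wild-type mice F5 did so against spleen (adjusted p = 0.0996), F9 against lung (adjusted p = 0.211) and Proc against kidney (adjusted p = 0.0579), all by edgeR.

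Among the clotting factors, F7 and F10 lie 1498 bases apart on chromosome 8, and F11 and Klkb1 lie 4657 bases apart on the same chromosome. F10, which makes thrombin from prothrombin, was at 715 ± 122 CPM in wild-type and 709 ± 30.03 CPM in Scx-/- livers. F7, the partner of tissue factor, was at 188 ± 83.5 and 250 ± 65.4 CPM. Both neighbours on chromosome 8 were thus highest in liver, with overlapping genotypes.

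F11, a protease of the contact pathway, was at 115 ± 33.4 and 63.7 ± 32.0 CPM, and Klkb1, which activates F12, at 371 ± 74.1 and 379 ± 73.2 CPM. F12 itself was at 579 ± 185 and 710 ± 146 CPM. F5, the cofactor of F10, was at 270 ± 65.9 and 324 ± 48.4 CPM. For each of these genes the 2 genotypes overlapped in liver. F9, lost in hemophilia B, was at 145, 192 and 226 CPM in wild-type and at 228, 228 and 252 CPM in Scx-/- livers, a small gap without overlap (edgeR adjusted p = 0.764).

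Among the remaining members, Proc, which cuts activated F5, was at 550 ± 137 and 540 ± 114 CPM in liver and Serpind1, an inhibitor of thrombin, at 464 ± 79.5 and 628 ± 102 CPM. Cpb2 was at 541 ± 120 and 357 ± 74.9 CPM, and Masp2, a protease of the lectin pathway, at 21.8 ± 15.6 and 38.4 ± 27.6 CPM. Serpind1 was the one of these 4 whose livers did not overlap (edgeR adjusted p = 0.746).

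Several liver genes had a second tissue. Complement factor I (Cfi), the protease that inactivates C3b and C4b, was at 134, 132 and 135 CPM in wild-type stomach and at 37.1, 94.2 and 107 CPM in Scx-/- stomach. The stomach means, 134 ± 1.86 and 79.5 ± 37.2 CPM, were above those of every other tissue but liver, where Cfi was at 795 ± 130 and 498 ± 86.6 CPM. Liver was higher than 14 of the 15 tissues in both genotypes, and stomach was the exception, with an adjusted p of 0.143 in wild-type and 0.0847 in Scx-/- mice (edgeR).

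F13b, the carrier subunit of factor XIII, was at 266, 216 and 109 CPM in wild-type livers and at 110, 160 and 129 CPM in wild-type kidneys. In Scx-/- mice it was at 141, 243 and 224 CPM in liver and at 121, 166 and 293 CPM in kidney. Liver and kidney overlapped in each genotype, with an edgeR log2 difference of 1.02 (adjusted p = 0.996) in wild-type and 0.98 (adjusted p = 1) in Scx-/- mice. Serpinf2 was at 75.8, 360 and 14.9 CPM in wild-type kidneys and at 89.4, 79.8 and 41.2 CPM in Scx-/- kidneys. Proc was at 56.1, 55.7 and 8.93 CPM in wild-type kidneys and at 13.4, 0 and 4.12 CPM in Scx-/- kidneys.

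Masp1, a protease bound to mannose-binding lectin, was found in both liver and cortex, whose libraries overlapped. Wild-type cortex held 36.8, 59.1 and 8.11 CPM and wild-type liver 35.3, 20.4 and 21.2 CPM. Of the 90 libraries outside liver, F11 and Masp2 each had a count in 2, F9 in 5, F7 in 7 and F5 in 19.

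The 14 genes that were highest elsewhere in both genotypes include 3 chains of C1q, properdin, C6, the C1 inhibitor, both receptors, tissue factor, F13a1, protein S, thrombomodulin and both plasminogen activators. C1qa, C1qb and C1qc, the 3 chains of C1q, lie within 18675 bases on chromosome 4. C1qc was at 238, 297 and 79.0 CPM in wild-type spleen and at 227, 204 and 275 CPM in Scx-/- spleen, against 116, 53.0 and 98.8 CPM in wild-type liver. C1qa had its highest mean in spleen in both genotypes (196 ± 124 and 244 ± 160 CPM), and C1qb in bone in wild-type (145 ± 126 CPM) and in spleen in Scx-/- mice (187 ± 102 CPM). The libraries of spleen overlapped with those of other tissues for each chain, and spleen was called above at most 2 of 15 tissues for any of them. Macrophage markers summed to 0.0776% of counts in wild-type and 0.0855% in Scx-/- spleen, the highest of the 16 tissues.

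Properdin (Cfp), which stabilizes the alternative C3 convertase, was at 396, 100 and 163 CPM in wild-type spleen and at 111, 311 and 292 CPM in Scx-/- spleen. All 6 spleen values lay above the liver values, of which the highest was 81.0 CPM. Spleen was called above 3 of 15 tissues in wild-type and 5 of 15 in Scx-/- mice.

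Thrombomodulin (Thbd), the endothelial receptor through which thrombin activates protein C, had a lung level apart from all others. Wild-type lungs were at 705, 535 and 771 CPM and Scx-/- lungs at 521, 686 and 671 CPM. The highest value outside lung was 322 CPM, in wild-type rectum, and liver was at 0 in all 6 libraries. Lung was called above 7 of 15 tissues in wild-type and 6 of 15 in Scx-/- mice. Endothelial markers were also highest in lung, at 0.197% of counts in wild-type and 0.238% in Scx-/- mice.

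C1 inhibitor (Serping1), which blocks the proteases of C1 and kallikrein, had counts in 92 of 96 libraries. Wild-type bladder held 915.1, 899 and 956 CPM, wild-type liver 1028, 938 and 480 CPM and wild-type lung 529, 642 and 489 CPM. Bladder and liver overlapped, and bladder was above all 3 lung libraries. In Scx-/- mice the order of the means was the same, with 688 ± 79.2 CPM in bladder, 686 ± 101 CPM in liver and 492 ± 124 CPM in lung.

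**Figure D2:**
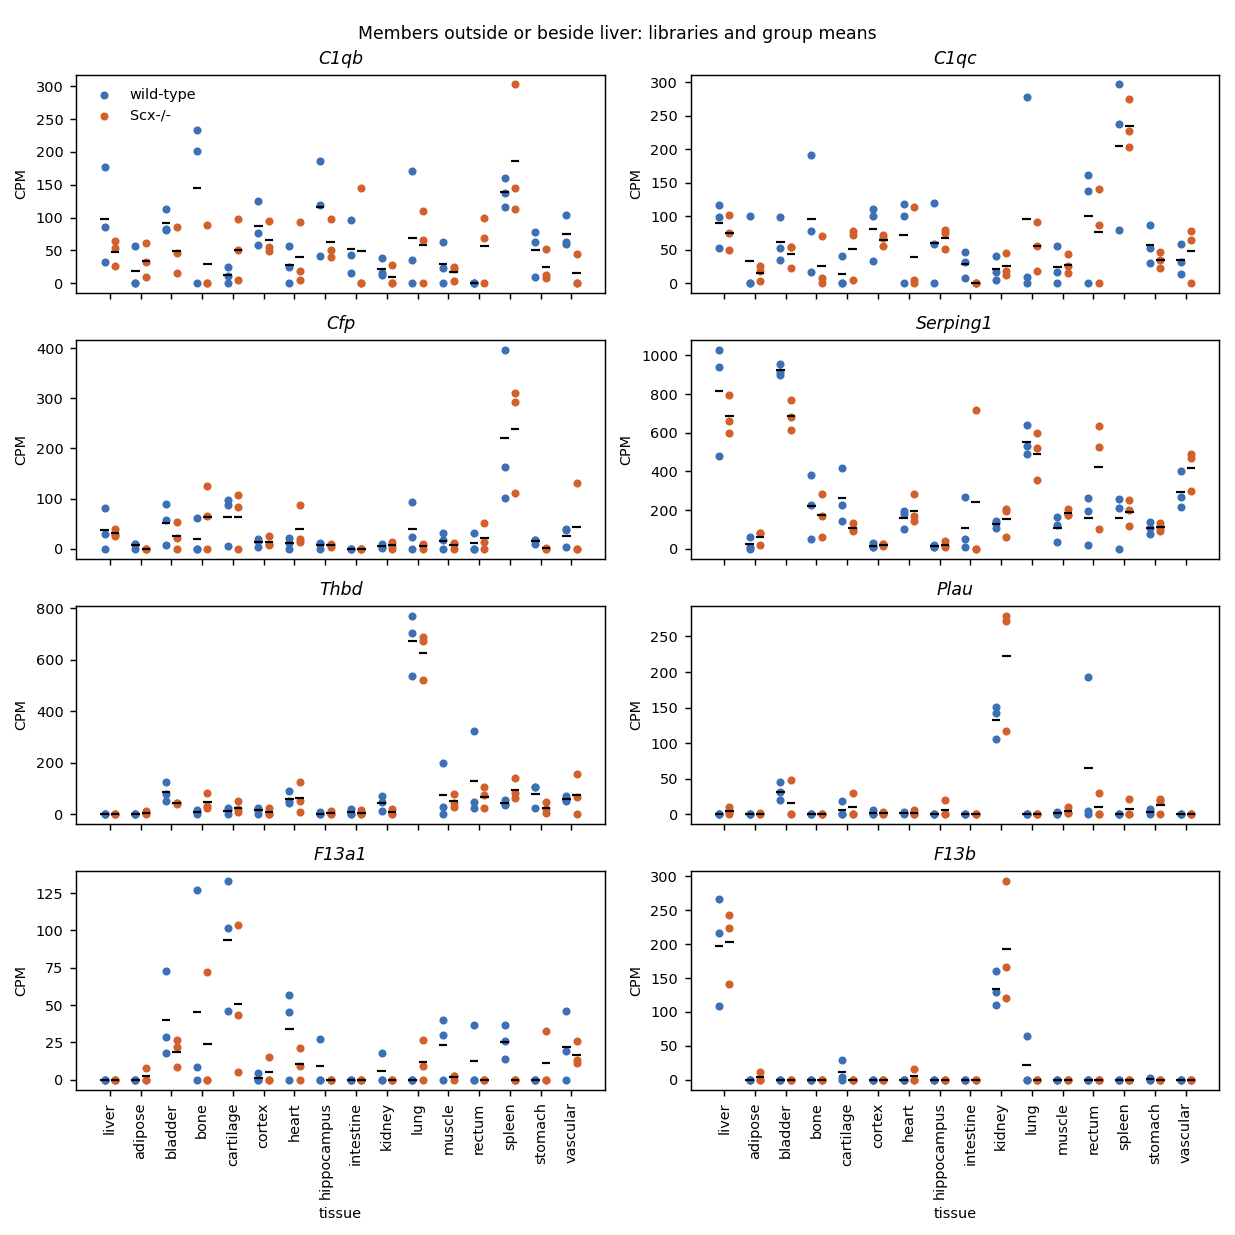
CPM of 8 genes (panels) in the 16 tissues, with 1 point per library (blue, wild-type; orange, Scx-/-) and a black line at each mean of 3. Spleen leads for Cfp, lung for Thbd and kidney for Plau by its means, Serping1 is spread over many tissues, and F13b has liver and kidney side by side.

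Urokinase (Plau), which activates plasminogen, was at 151, 106 and 143 CPM in wild-type kidneys and at 279, 117 and 272 CPM in Scx-/- kidneys. Wild-type rectum was next, at 4.60, 192 and 0 CPM, so that 1 rectum library lay above every wild-type kidney. Kidney was called above 5 of 15 tissues in wild-type and 4 of 15 in Scx-/- mice. Liver was at 0 in wild-type mice and at 4.32 ± 5.38 CPM in Scx-/- mice. The tissue activator Plat was also highest in kidney, at 30.4 ± 19.1 and 58.9 ± 28.2 CPM, with cortex next at 25.1 ± 8.70 and 33.2 ± 17.3 CPM. These kidney and cortex values overlapped. Plg itself had no count in kidney.

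Tissue factor (F3), which starts coagulation, had its highest wild-type mean in hippocampus (42.5 ± 39.1 CPM) and its highest Scx-/- mean in rectum (65.1 ± 86.7 CPM), each with an SD about as large as the mean. The A subunit of factor XIII (F13a1), known from platelets and macrophages, had no count in liver and was highest in cartilage, at 93.5 ± 44.1 and 50.6 ± 49.6 CPM. Protein S (Pros1), the cofactor of protein C, was at 72.7 ± 61.1 CPM in wild-type lung and 46.5 ± 11.3 CPM in Scx-/- lung. C6 was higher in lung (55.8 ± 8.72 CPM) than in liver (23.9 ± 34.6 CPM) in wild-type means, with overlapping libraries. The receptors C3ar1 and C5ar1, found on myeloid cells, had counts in 22 and 29 libraries, and C5ar1 was at 32.2, 21.4 and 357 CPM in wild-type lung.

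The next comparison asked which members differed between wild-type and Scx-/- mice within a tissue. Of 417 pairs of member and tissue tested by edgeR, 20 passed the thresholds of the study: p under 0.05 before adjustment, and over 2-fold. That is 4.8% of pairs, with 3.71% of all pairs of gene and tissue passing, so the share among members was near the background. Of the 20, 9 were higher and 11 lower in Scx-/- mice, in 9 tissues. By adjusted p, 1 member passed, C8a in liver, where 0.442% of 13356 genes passed, and 0.0914% of all pairs did.

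C8a encodes the alpha chain of C8, the component that first inserts into the membrane when the pore forms. It was at 228, 481 and 169 CPM in wild-type livers and at 122, 49.3 and 53.4 CPM in Scx-/- livers, from 276 and 154 summed counts. The lowest wild-type library was above the highest Scx-/- library. The log2 fold change was -1.74 ± 0.451 (SE), with an adjusted p of 0.0282 by edgeR. Without wild-type replicate 2, the library with Hbb-bs, it was -1.24 and the adjusted p 0.824, and without Scx-/- replicate 2 or 3 the log2 fold change was -1.50 or -1.54 and the adjusted p 0.529 or 0.472. With a term for the class of each library by Xist or Y-linked genes, it was -1.74 (edgeR adjusted p = 0.0389). With the replicate number as a block the log2 fold change was -1.74 (edgeR adjusted p = 0.104). With edgeR's filter on low counts, filterByExpr, it was -1.83 (adjusted p = 0.252). Among libraries with Xist, the wild-type values were 228 and 169 CPM and the Scx-/- value 122 CPM, and among those with Y-linked transcripts 481 CPM against 49.3 and 53.4 CPM. The part of the wild-type library with the other globin gene in this result was not tested further.

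C8b encodes the beta chain, which joins C8 to the growing complex. It was at 131, 420 and 342 CPM in wild-type livers and at 137, 90.2 and 56.9 CPM in Scx-/- livers. The groups overlapped at wild-type replicate 1, so the lower values were not common to all 3 libraries. The log2 fold change was -1.43 ± 0.435 (edgeR adjusted p = 0.146). C8b passed the study's thresholds and was singled out after its values were seen, as the partner of C8a. It passed them too under each alternative tried, with log2 fold changes from -1.81 to -1.12.

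C8g, the third chain of C8, which is not needed for lysis, was at 399, 824 and 487 CPM in wild-type and at 478, 296 and 477 CPM in Scx-/- livers. Its groups overlapped, with a log2 fold change of -0.24 ± 0.314 (edgeR adjusted p = 0.841), which was 0.084 without wild-type replicate 2. C9, which forms the ring of the pore, had 9 counts in wild-type replicate 2, none in wild-type replicates 1 and 3, and 1, 2 and 1 counts in Scx-/- livers. C6 was at 0, 8.15 and 63.5 CPM in wild-type and at 26.03, 0 and 20.7 CPM in Scx-/- livers. C8a, C8b, C8g and C9 all had their highest liver value in wild-type replicate 2. C5, listed as Hc and not among the 43, was at 272, 387 and 339 CPM in wild-type and at 475, 561 and 741 CPM in Scx-/- livers. Hc was thus higher in all 3 Scx-/- livers, with a log2 fold change of 1.02 ± 0.321 (edgeR adjusted p = 0.186). It was named after its values were seen, and it kept the study's thresholds in 5 alternatives and lost them in 8. In lung Hc was at 173, 64.2 and 132 CPM in wild-type and at 289, 431 and 363 CPM in Scx-/- mice (edgeR adjusted p = 0.741).

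**Figure D3:**
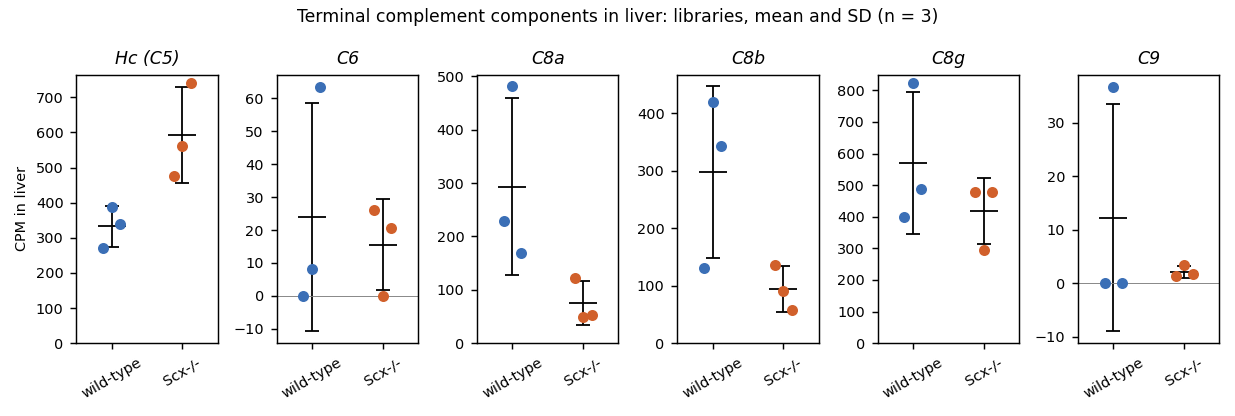
CPM of the terminal complement genes in liver, with 1 point per library (blue, wild-type; orange, Scx-/-) and the mean and SD of 3 as a black line and bars; each panel has its own scale. C8a does not overlap between the genotypes, C8b overlaps at 1 wild-type library, and Hc, which encodes C5, is higher in Scx-/- livers.

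Few other members passed a threshold in liver. Of 39 members tested there, 3 passed the study's thresholds, where 4.29% of genes did. These were C8a, C8b and Masp1, which was at 35.3, 20.4 and 21.2 CPM in wild-type and at 167, 37.4 and 20.7 CPM in Scx-/- livers, so that 1 library carried its higher mean (edgeR adjusted p = 0.746). Without that library the log2 fold change of Masp1 was 0.32 in place of 1.71. The 17 genes called higher in liver in either genotype had log2 fold changes between -0.43 and 0.63, with a lowest adjusted p of 0.520 (edgeR). Their median was 0.22, and that of all genes in liver was 0.22 too, on the TMM scale of the fit. Cfi was at 646, 852 and 886 CPM in wild-type and at 596, 464 and 433 CPM in Scx-/- livers, without overlap (log2 fold change -0.48 ± 0.291, edgeR adjusted p = 0.746). The hepatocyte markers summed to 19.4% of counts in wild-type and 16.6% in Scx-/- livers.

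**Figure D4:**
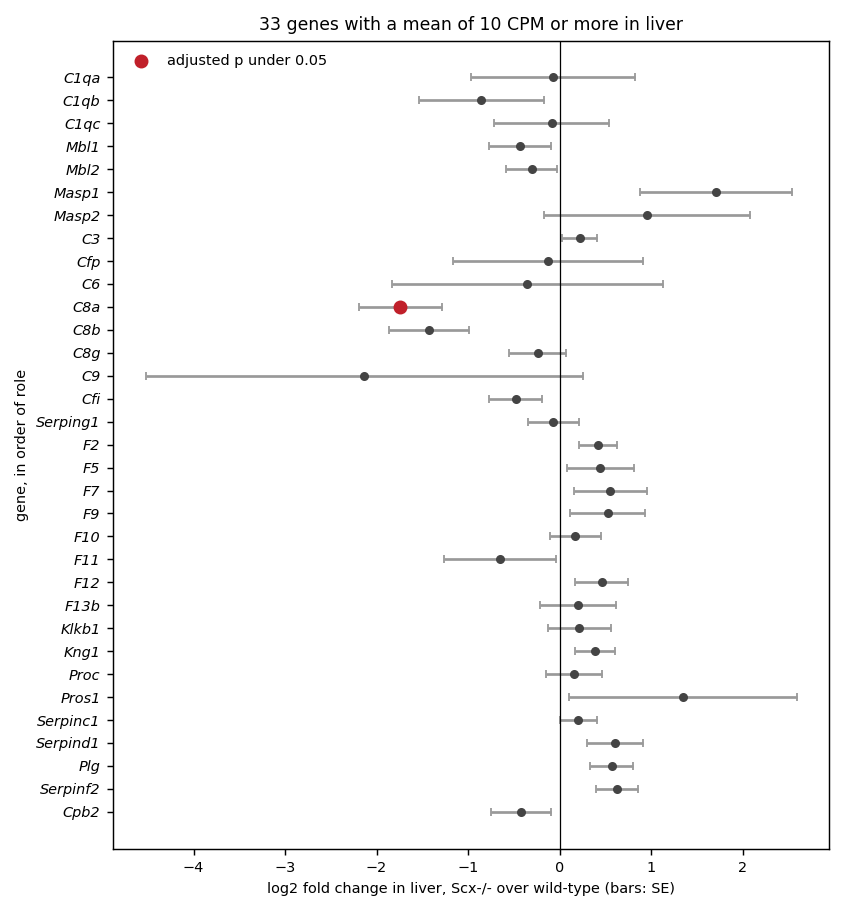
Log2 fold change in liver, Scx-/- over wild-type, of the 33 members with a mean of 10 CPM or more in either group (points, edgeR) with its SE (bars). C8a, in red, is the gene with an adjusted p under 0.05, C8b lies next to it, and most coagulation genes sit slightly above 0, as the median of all genes does.

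In bladder, 6 of 29 members tested were higher in Scx-/- mice at the study's thresholds, where 1.81% of genes were. They were Kng1, Serpinc1, Plg, Klkb1, Cfi and Proc, with edgeR adjusted p between 0.141 and 0.804. All 6 were at 0 in the 3 wild-type bladders, and all but Kng1 had counts in Scx-/- replicate 2 alone, from 13 counts for Plg and Cfi to 35 for Serpinc1. Kng1 had 6, 44 and 0 counts. Albumin (Alb), the main product of hepatocytes, was at 259, 3046 and 0 CPM in the 3 Scx-/- bladders and at 17.01, 8.92 and 16.01 CPM in wild-type bladders. In Scx-/- replicate 2 Alb reached 3.76% of its liver level, Serpinc1 3.38%, Plg 2.26%, Kng1 5.92% and Klkb1 13.2%. The shares of other liver genes in that library were uneven, with Proc at 10.4%, C8g at 8.98% and Cfi at 8.15%, and with no count of Mbl1, Serpind1 and Cpb2. That library also held both Xist (59.3 CPM) and Y-linked transcripts (222 CPM). Without it, 14 pairs of member and tissue were called over the 16 tissues in place of 20.

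**Figure D5:**
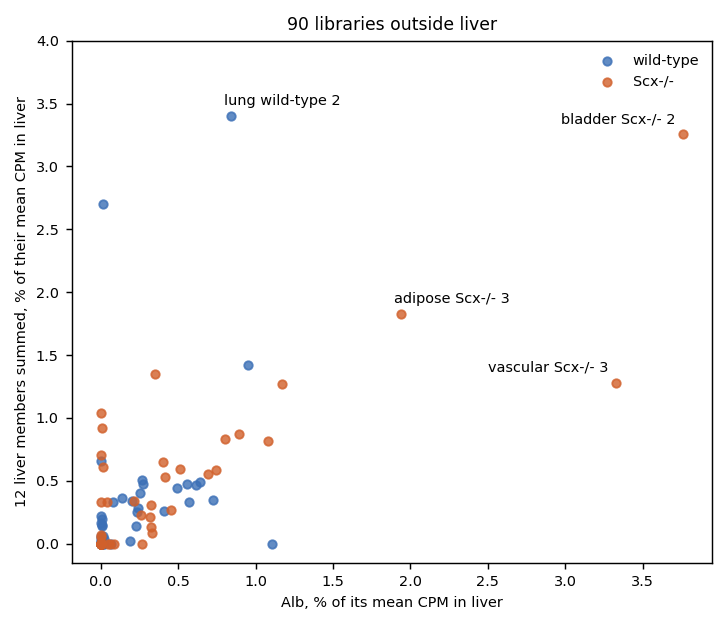
Each point is 1 of 90 libraries outside liver (blue, wild-type; orange, Scx-/-). The x axis gives Alb and the y axis the sum of the 12 members called higher in liver in both genotypes other than C3, each as a percentage of its mean CPM in liver of the same genotype; bladder Scx-/- replicate 2 is high on both axes.

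Over the 90 libraries outside liver, the 12 genes called higher in liver in both genotypes, C3 left aside, summed to a median of 26.2 CPM, and 28 libraries held none of them. Lung wild-type replicate 2, with 46732 counts, was at 3.40% of the liver level for these genes and held the only Plg counts in wild-type lung, 10 in all. Plg was at 0 in every Scx-/- lung, and its call there (edgeR adjusted p = 0.741) rested on that library. Kidney wild-type replicate 2 was at 2.70%, with Alb at 0.0176% of its liver level, and Serpinf2 gave 360 of the 391 CPM there.

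In kidney, 3 of 29 members were lower in Scx-/- mice, where 2.69% of genes were. Thbd had 72, 11 and 33 counts in wild-type and 9, 0 and 0 counts in Scx-/- kidneys. Proc had 57, 49 and 6 counts in wild-type and 6, 0 and 1 in Scx-/- kidneys, and Serpinf2 77, 317 and 10 against 40, 26 and 10. The groups overlapped in CPM for each, and the adjusted p was 0.791 for all 3 (edgeR). Without wild-type replicate 2 the direction of Serpinf2 turned, from a log2 fold change of -1.20 to 0.53. For Thbd and Proc the unadjusted p rose to 0.05 or more in 5 alternatives each. The 4 kidney markers summed to 2.21%, 3.22% and 3.08% of counts in wild-type and to 1.84%, 1.56% and 1.66% in Scx-/- kidneys, also lower without overlap. Endothelial markers summed to 0.0419%, 0.0422% and 0.0571% in wild-type and to 0.0376%, 0.0417% and 0.0351% in Scx-/- kidneys. The part of these markers in the kidney results was not tested.

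In 3 further called pairs the libraries did not overlap. Of all 253 pairs of member and tissue with a mean of 10 CPM or more, 29 had no overlap, or 11.5%, close to the 10.6% of 153710 such pairs over all genes. In rectum, C3 was at 13.8, 0 and 0 CPM in wild-type and at 394, 43.3 and 54.1 CPM in Scx-/- mice, with a log2 fold change of 4.31 ± 1.75 (edgeR adjusted p = 0.706). Without Scx-/- replicate 1, C3 no longer passed the study's thresholds, with an unadjusted p of 0.206 in edgeR and a log2 fold change of 2.95. That library also stood apart in its markers: rectum markers took 0.0241% of its counts (0.313% to 0.601% in the other 5), neutrophil markers 0.217% (0.0328% at most in the others) and fibroblast markers 2.93% (1.76% at most). Their part in the result was not tested. In spleen, C5ar1, the receptor of the fragment C5a, had 26, 3 and 6 counts in wild-type and none in Scx-/- mice. On the pooled counts of each group, C5ar1 was at least 7.42-fold lower in Scx-/- spleens, with the floor at 3 counts over the group (edgeR adjusted p = 0.788). This fold leaves out the spread between libraries. In edgeR the unadjusted p of C5ar1, 0.0290, rose above 0.05 in 6 of 11 alternatives, among them without wild-type replicate 1, which held 26 of its 35 counts. F13a1 had 12, 4 and 7 counts in wild-type spleens and none in Scx-/- spleens. On pooled counts it was at least 4.88-fold lower in the same way (edgeR adjusted p = 0.788). Its unadjusted p of 0.0498 in edgeR stayed under 0.05 in 1 of 11 alternatives. The acinar markers were at 1.41%, 1.12% and 0.0100% of counts in wild-type and at 0.00513%, 8.43% and 4.31% in Scx-/- spleens. The summed neutrophil markers were at 0.659% of counts in wild-type and 0.485% in Scx-/- spleens, and macrophage markers at 0.0776% and 0.0855%. The part of these markers in either result was not tested.

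The other 5 called pairs rested on few libraries. C1qa in intestine had 13, 0 and 32 counts in wild-type and none in Scx-/- samples, which totalled 111469 counts against 608173. C1qb in rectum had none in wild-type and 0, 16 and 31 counts in Scx-/- samples. C3ar1 in heart had 2, 0 and 15 counts in wild-type and none in Scx-/- samples, and F13a1 in muscle had 0, 26 and 19 against 0, 2 and 2. With Plg in lung, these had edgeR adjusted p between 0.652 and 0.771.

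A common change over the 16 tissues was tested in an additive fit with a term for tissue. None of 38 members tested had an adjusted p under 0.05 by edgeR, where 0.29% of 13459 genes did, and 5 members were under 0.05 unadjusted, where 7.76% of all genes were. These were Klkb1, Plg, F2, Serpinc1 and C8b. Their log2 fold changes ran from -1.09 for C8b to 1.53 for Plg, with adjusted p of 0.265 or more. Of the 38, 23 had a higher estimate in Scx-/- mice, and the median log2 fold change of the 38 was 0.26, with 0.03 over all genes. Hepatocyte markers took a mean of 0.0133% of counts in wild-type and 0.215% in Scx-/- bladders, and 0.0189% and 0.152% in vascular samples. They went the other way in heart (0.192% and 0.102%) and lung (0.165% and 0.0695%). Their part in these estimates was not tested. The fit treats libraries of 1 replicate number in different tissues as independent, while the globin and sex-linked genes were shared by number over tissues. The fit kept the genes that pass filterByExpr, edgeR's filter on low counts. With genes kept unless at 0 in all 96 libraries, 1 member, Plg, passed, with a log2 fold change of 1.56 (edgeR adjusted p = 0.0237). Outside liver its Scx-/- counts lay mainly in single libraries, with 18 in heart replicate 3, 13 in bladder replicate 2, 12 in adipose replicate 3 and 11 in spleen replicate 1. In lung its only counts, 10, were in wild-type replicate 2. No replicate was left out at this filter.

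A further list held other genes of these systems. Of its 54 symbols 51 were in the table and 49 had a count. Higher levels in liver than in all 15 tissues were called for 8 of these 49 in wild-type mice, where 0.563% of all genes were called, and for 5 in Scx-/- mice, where 0.623% were, with 5 called in both. Vitronectin (Vtn), which binds terminal complexes, was one of these, at 2880 ± 287 and 2509 ± 276 CPM in liver, and fibrinogen beta (Fgb), a chain of the clot protein, was another, at 4841 ± 441 and 4980 ± 943 CPM. Between genotypes, 11 of 482 pairs were higher and 13 lower at the study's thresholds, or 4.98% of pairs where 3.71% of all pairs were, and 2 had an adjusted p under 0.05, where 0.0914% of all pairs did. Fibrinogen alpha (Fga) in bladder was at 0 in wild-type and at 12.1, 222 and 0 CPM in Scx-/- mice, again highest in replicate 2 (edgeR adjusted p = 0.00212, and 0.841 without that library). Clusterin (Clu), which binds terminal complexes, was at 466, 585 and 573 CPM in wild-type and at 291, 252 and 252 CPM in Scx-/- kidneys, with a log2 fold change of -1.13 ± 0.290 (edgeR adjusted p = 0.0484). Its adjusted p was between 0.0616 and 0.696 in the 12 alternatives, so the call held in none of them, while its log2 fold change stayed between -1.22 and -1.02, and the kidney markers were lower in Scx-/- kidneys as well. In the additive fit 1 of 34 genes of this list passed, where 0.29% of all genes did. This was Serpina1a, a gene of the alpha-1-antitrypsin family, with a log2 fold change of 2.58 ± 0.499 (edgeR adjusted p = 0.000709). It was at 37.4, 501 and 850 CPM in wild-type and at 977, 1096 and 436 CPM in Scx-/- livers, which overlapped. In kidney it was at 0, 2.27 and 1.49 CPM in wild-type and at 15.6, 73.7 and 37.1 CPM in Scx-/- mice, without overlap. The adjusted p of Serpina1a was 0.101 without replicate 1 and 0.268 without replicate 2 of every tissue, with log2 fold changes of 2.28 and 2.05. Its paralogs Serpina1b to Serpina1e are very similar in sequence, so its counts are uncertain.

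C2, Cfb and C4b lie in a stretch of chromosome 17 in which hardly any gene was counted. Around C2, 99 consecutive protein-coding genes between 33773750 and 35346762 (GRCm38) had under 10 counts each over the 96 libraries, 94 of them none, and 23 counts in all. Over all 20561 protein-coding genes, 25.3% were under this limit. C2 and Cfb also share exons with Gm20547 on the same strand. The counts of C2, Cfb and C4b are therefore not read as their levels, and the cause of the gap was not tested.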

How the data were processed

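The deposited table gives raw counts by gene symbol. Per the labels, the authors aligned the reads with Bowtie2 on mm10, HTSeq did the counting, and nothing was normalized. Tool versions, annotation and strand setting were not given in the sources used here. Intervals of members were read from GENCODE M21 (GRCm38). The study describes its libraries as enriched for 3′ ends, while the labels name second-strand synthesis and Nextera XT without saying which part of a transcript was read, so CPM were not divided by length and are compared between libraries, not between genes. Levels were computed as CPM of each library's total, and edgeR 4.0.16 (R 4.3.3, limma 3.58.1) was used for tests, with TMM factors, genes at 0 in all libraries of a fit removed (filterByExpr by group in the fit over all tissues), a common trend of dispersion, glmQLFTest and Benjamini-Hochberg adjustment over all genes of a fit. Genotypes were compared within each tissue (3 against 3), tissues within each genotype, and genotypes over all tissues with tissue as a term. DESeq2 1.42.0, the tool of the study, was an alternative, with other scalings, filters, a replicate block, thinning and left-out libraries. The fits were tested on simulated counts. Python 3.11.15 made the summaries and figures.

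The 43 members, the other lists and the rule for naming were chosen with earlier results of these data known. Named are members with a mean of 10 CPM or more in a group, pairs of member and tissue with an adjusted p under 0.05, or at the study's thresholds with 10 CPM and no overlap, members called in the additive fit, and, of other pathway genes, the 5 with the largest share of genotype calls by adjusted p, of which there were 2. Vtn, Fgb, Serpina1a and Hc were named outside this rule, after their values were seen, and Kng2 as the paralog of Kng1. With 3 libraries a group, and no statement that they came from separate mice, p-values measure the spread between these libraries. Depth was 11244 to 1658192 counts, so 1 count was worth 0.603 to 88.9 CPM.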

Additional observations from a re-analysis of the deposited data

Results flagged for a closer look

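For 3 genes every Scx-/- library lay above all wild-type libraries in 1 tissue and below them in another, with a mean of 10 CPM or more; the difference between tissues was not tested, and every adjusted p was 0.652 or more by edgeR. Groups without overlap made up 11.5% of the member pairs at this level, with 10.6% over all genes, so the share among members was near the background. The share of all genes with both directions is not given here. Thbd, the endothelial thrombin receptor, was higher by a mean of 37.3 CPM in Scx-/- bone (8.67, 16.7 and 0 against 33.3, 80.5 and 23.7 CPM, from 2 and 19 counts) and by 51.4 CPM in Scx-/- spleen (53.5, 41.4 and 36.9 against 64.1, 139 and 82.6 CPM). In bladder Thbd fell by 42.1 CPM, from 76.5, 127 and 52.6 to 43.6, 40.6 and 45.3 CPM.

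Serping1, the C1 inhibitor, was higher by a mean of 79.7 CPM in Scx-/- muscle (32.9, 163 and 124 against 176, 207 and 177 CPM). Serping1 fell by 236 CPM in bladder (915.1, 899 and 956 against 613, 771 and 679 CPM). In cartilage Serping1 fell by 153 CPM (418, 226 and 141 against 103, 131 and 90.6 CPM). The fibroblast markers summed to 3.89% of counts in wild-type and 2.27% in Scx-/- bladders, to 5.10% and 2.75% in cartilage and to 1.26% and 0.709% in muscle, so their means were lower in Scx-/- samples of all 3 tissues. In cartilage wild-type replicate 1, the library with the most Serping1, the markers were at 1.48%, under the 2.49% to 3.10% of the Scx-/- libraries. Their part in the result was not tested.

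Pros1, the cofactor of protein C, had no count in wild-type hearts and 1, 8 and 1 counts in Scx-/- hearts, a mean higher by 20.005 CPM. Wild-type heart replicate 2 held 11244 counts, so 1 count there is worth 88.9 CPM, more than any Scx-/- heart value. In intestine Pros1 had 3, 1 and 18 counts in wild-type and none in Scx-/- samples, so its mean fell by 69.1 CPM. The wild-type values were 7.75, 7.85 and 192 CPM, so 1 library set the mean. The Scx-/- intestine libraries held 54955, 30014 and 26500 counts, so that a single count there is worth more than the lower wild-type values, and a difference at that level was not detectable.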

How the results depend on the processing

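The 20 pairs of member and tissue at the study's thresholds were 20 with RLE size factors and 21 with library totals, but 2 with filterByExpr, which tested 101 pairs in place of 417, 12 with DESeq2, 10 with libraries thinned to the smallest total of the tissue, and 11 to 18 without 1 replicate of a genotype in every tissue. Without bladder Scx-/- replicate 2, a choice made after seeing the data, 14 were left. By adjusted p the count of 1 became 2 with library totals and 0 with filterByExpr and DESeq2, where C8a in liver had no adjusted p, and 0 to 2 without a replicate. Replicate numbers did not pair genotypes within a tissue: the correlations of deviations from the group means ran from -0.271 to 0.0673 over 48 pairs. With the number as a replicate block, 5 pairs passed the study's thresholds and 0 the adjusted p, while the liver counts were 15 in wild-type and 16 in Scx-/- mice.

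The members called higher in liver were 1 in wild-type and 2 in Scx-/- mice by DESeq2, with 15 of 41 members in each genotype lacking an adjusted p in some contrast, and 9 in Scx-/- mice with library totals; without 1 replicate number they were 7 to 8 and 9 to 10. Mbl2, C3, F2, Kng1, Serpinc1 and Plg were called in all 8 edgeR fits of both genotypes. Without the contrasts with adipose and vascular samples, added after seeing the data, 16 and 18 were called. In the additive fit 1 member passed when only genes at 0 in every library were removed, and 0 under the other settings. Over 36 pairs of gene and tissue named in the text, 2 of 412 alternative fits turned the direction, both without wild-type replicate 2: Serpinf2 in kidney (log2 fold changes from -1.72 to 0.53 without 1 library) and C8g in liver (from -0.43 to 0.084). In 120 of these fits a called pair lost its threshold, F13a1 and C5ar1 in spleen in 10 and 6 of 11 and Clu in kidney in 12 of 12.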
